A study of Homo sapiens with 4 samples.

Results

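The interferon-stimulated and antigen presentation genes described here are 50 named genes, and all 50 were found among the 58522 genes of the deposited table by matching its Ensembl identifiers to gene symbols. They were listed by name and known role, by a rule that uses no measured value, although earlier results of these data were known when the list was made. They fall into 12 roles: MHC class I chains, peptide supply to class I molecules with the class I transactivator, interferon receptors, transcription factors, RNA sensors, the IFIT family, the IFITM family with tetherin, MX GTPases, the OAS family, other antiviral enzymes and restriction factors, the ISG15 system with ADP-ribosylation, and the IFI genes with XAF1. RNA-seq was done on Ishikawa cells, an established human endometrial adenocarcinoma line used as a model of endometrial epithelium. The control group was 2 libraries from cells given a negative control shRNA. The CDYL-sh group was 2 libraries from cells given shRNA against CDYL, which encodes a chromodomain protein known as a transcriptional corepressor. CDYL hairpins were carried on a U6-driven vector with a green fluorescent protein and a puromycin resistance gene. Per the methods, cells given shRNA were transduced with polybrene and selected with puromycin, so neither group is untreated. The labels and methods name no interferon treatment. The CDYL-sh libraries carry the names sh1 and sh2, and the paper lists several CDYL hairpins of different sequence under numbered names of the same form. The labels do not say whether sh1 and sh2 are repeats or different hairpins, or whether libraries came from separate cultures. All p-values therefore measure the spread between these libraries, which may be technical or, within CDYL-sh, include a difference between hairpins.

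CDYL itself, the check of the labels, was read at 50.4 and 53.0 CPM (counts scaled to library size) in the control libraries and at 11.4 and 9.70 CPM in the CDYL-sh libraries, which is 20.4% of the control mean. Total counts were 22341852 to 27688447 per library. After a filter on low counts, 16158 genes were tested with edgeR's quasi-likelihood test, with Benjamini-Hochberg adjustment over all of them and a threshold of 0.05. Of the 8 epithelial markers, all 8 were tested and their summed level was 2484 and 2742 FPKM (fragments scaled for gene length and depth) in control and 2569 and 2716 FPKM in CDYL-sh. The 8 leukocyte markers summed to 6.17 and 8.72 FPKM in control and to 15.0 and 11.9 FPKM in CDYL-sh. Among them CD68 rose, and the defining genes PTPRC and CD3E had at most 1 count in a library.

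Interferons are secreted proteins that cells make after sensing viral nucleic acid. Type I interferon binds the IFNAR1-IFNAR2 receptor, whose kinases phosphorylate STAT proteins, and STAT2 then joins a partner STAT and IRF9 in a complex that binds the interferon-stimulated response element (ISRE) in front of its target genes. The products of these genes block viral entry, translation and budding. In antigen presentation, the proteasome cuts proteins into peptides, the TAP1-TAP2 transporter carries them into the endoplasmic reticulum, and tapasin (TAPBP) helps to load them on MHC class I molecules, each made of a heavy chain and the light chain B2M. Endometrial epithelium responds to interferon around implantation, and class I molecules at this surface are read by T cells and natural killer cells.

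The element that ties many of these genes together was read from RefSeq promoter sequences on GRCh38.p14, from 250 bases before to 50 bases after each start, which were held for 38 of the 50 members. The ISRE was searched as GAAANNGAAA, with its reverse complement TTTCNNTTTC, and overlapping matches were counted apart. It was present in 23 of 38 member promoters (60.53%) and in 996 of 27305 promoters of all genes (3.65%). The gamma-activated site, the STAT element searched as TTCNNNGAA, was present in 9 of 38 (23.68%) and in 2152 of all promoters (7.88%). The members were listed by known role, many as interferon-stimulated genes, so higher shares than over all promoters are not an independent result. A match is a description of the letters in this window and does not show binding. The 7 sequences below were chosen to set members that rose or fell in CDYL-sh cells beside members that did not pass the test. They are written 5′ to 3′ on the strand of the gene with 20 bases on each side, and capitals mark the ISRE matches. IFIT1 (chr10:89392487-89392549, plus strand) fell, and its 2 matches span bases -116 to -94 from the start. IFIT3 (chr10:89327821-89327904, plus strand), a nearby gene on the same strand, rose. BST2 (chr19:17405725-17405780, minus strand) and TAP1 (chr6:32853803-32853858, minus strand) rose, and each holds 2 overlapping matches. ISG15 (chr1:1013364-1013419, plus strand) and B2M (chr15:44711353-44711408, plus strand) were abundant and did not pass. OAS3 (chr12:112938311-112938360, plus strand), shown at the first of its 2 matches, was close to undetected.
IFIT1: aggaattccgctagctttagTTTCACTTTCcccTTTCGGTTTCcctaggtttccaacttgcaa
IFIT3: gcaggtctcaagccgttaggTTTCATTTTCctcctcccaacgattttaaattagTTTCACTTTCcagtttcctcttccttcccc
BST2: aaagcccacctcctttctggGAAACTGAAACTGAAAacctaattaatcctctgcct
TAP1: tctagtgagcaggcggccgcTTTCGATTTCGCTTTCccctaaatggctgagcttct
ISG15: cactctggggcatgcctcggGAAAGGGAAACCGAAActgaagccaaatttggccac
B2M: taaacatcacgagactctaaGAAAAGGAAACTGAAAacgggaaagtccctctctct
OAS3: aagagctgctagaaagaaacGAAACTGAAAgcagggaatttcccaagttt

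**Figure D1:**
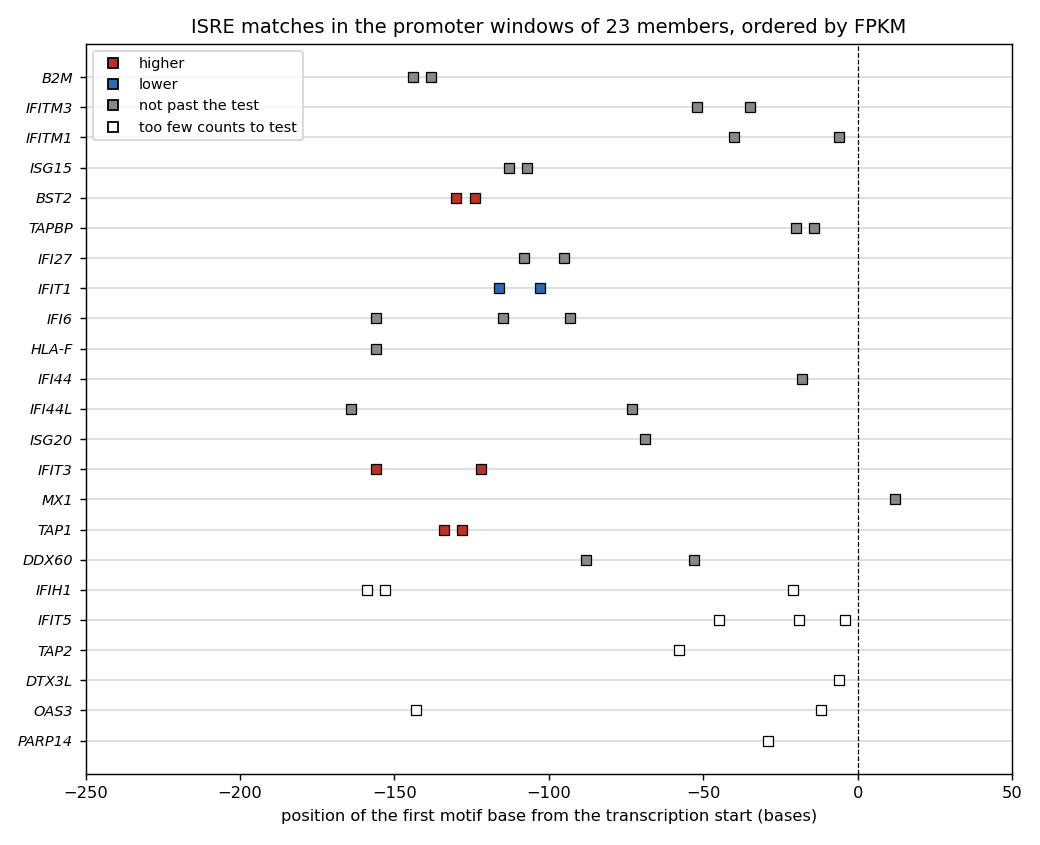
Position of each ISRE match (x axis, bases from the RefSeq transcription start to the first motif base) in the 23 member promoters that hold one, ordered by mean FPKM and coloured by the call of the gene. Matches occur in members that were higher, lower, not past the test and too low to test.

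ISRE matches were held by 3 of the 5 members that rose (TAP1, IFIT3 and BST2), by IFIT1, the only member that fell with a promoter in the RefSeq table, by 13 of 20 that did not pass and by 6 of 12 that were too low to test. No match was found in the windows of HLA-C and IFNAR1, which rose. Of the other genes of the pathway, 27 of 81 promoters (33.33%) held the motif.

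The members differed widely in level. By mean FPKM over the 4 libraries, 12 members were at 10 FPKM or above, 13 between 1 and 10 FPKM, and 25 under 1 FPKM. B2M alone made up 46.8% of the summed member FPKM, followed by IFITM3 (mean 209 FPKM), IFITM1 (191 FPKM), IFITM2 (104 FPKM) and IRF3 (98.8 FPKM). PSMB9, OAS1, PARP14 and XAF1 had 0 counts in all 4 libraries. At these depths a count of 0 allows up to 3 counts, which is 0.107 to 0.136 CPM per library, and this floor covers counting error only.

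**Figure D2:**
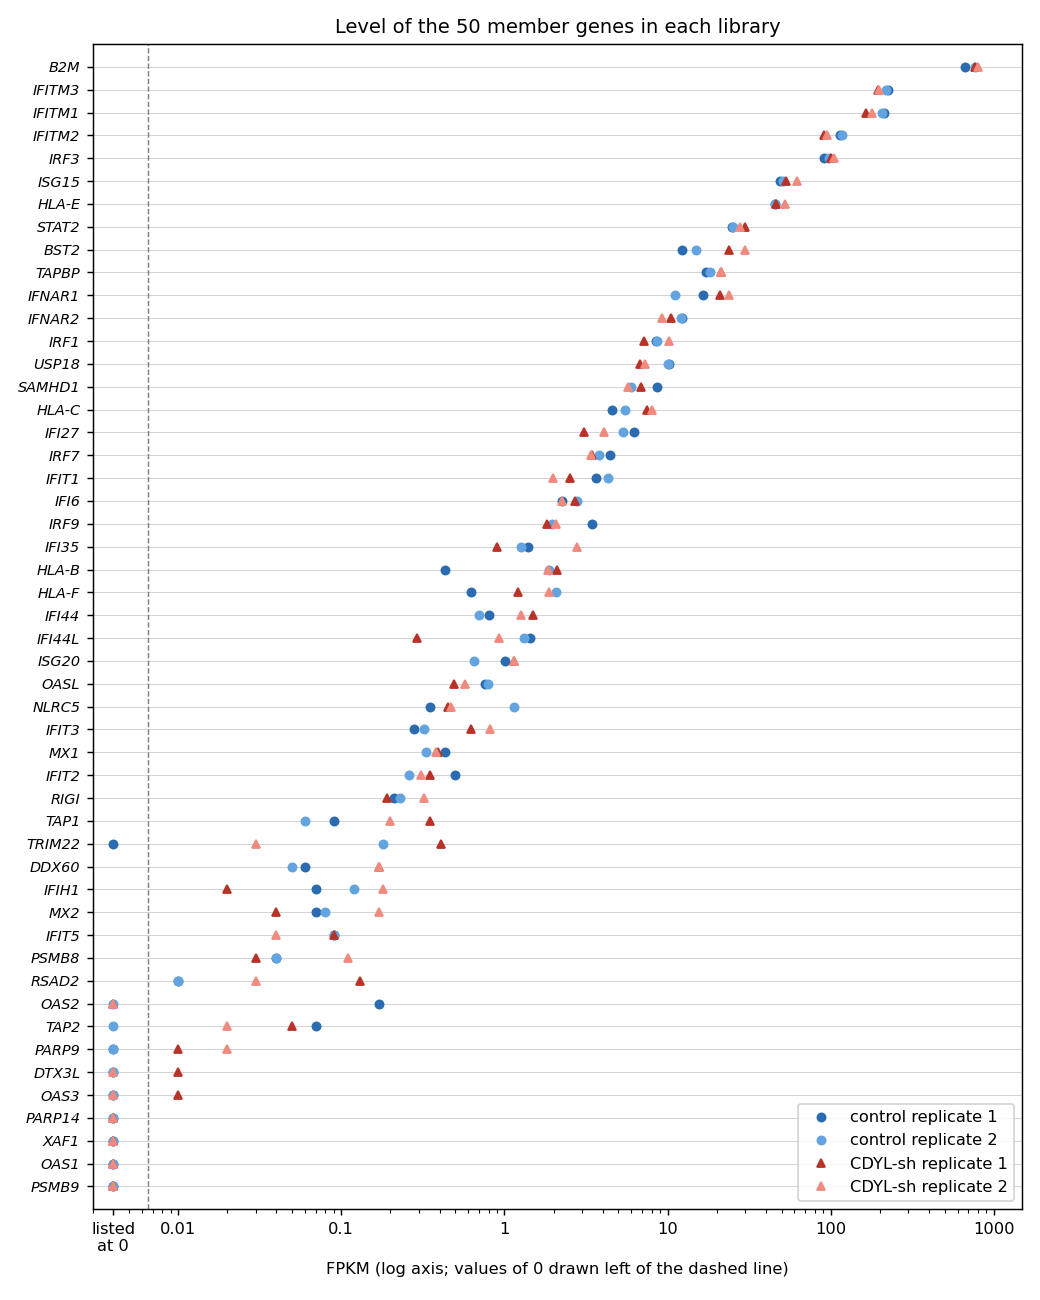
Level of each of the 50 members (y axis, ordered by mean) in each of the 4 libraries (x axis, FPKM on a log axis, with values of 0 drawn left of the dashed line). B2M lies between 670 and 805 FPKM, 25 members have a mean under 1 FPKM, and 4 members are at 0 in every library.

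Of the 50 members, 35 passed the filter and 15 were too low to test, with at most 13 counts in any library (IFIH1). In CDYL-sh cells, 5 members rose (HLA-C, TAP1, IFNAR1, IFIT3 and BST2) and 4 fell (IFNAR2, IFIT1, IFITM2 and USP18), and 26 were not past the threshold. Over all genes tested, 13.6% were called higher, 12.1% lower and 25.7% in either direction. The 9 called members are 25.7% of the 35 tested, which is the same share as among all genes. TAP1 and DDX60 passed the filter only through the CDYL-sh libraries, so the share of tested members is not evidence about the list. The median log2 fold change, CDYL-sh against control, was 0.13 over the members tested and 0.01 over all genes tested. The 2 groups of libraries did not overlap for 20 of the 35 (57.1%), against 64.3% of all genes tested. The counts depended on single libraries and on the tool, as did the number of calls over all genes. Over all genes, fewer were called in both directions whichever library was left out. Without control replicate 1, 2 members were higher, without CDYL-sh replicate 1, 2 were higher and 1 lower, and without CDYL-sh replicate 2, 2 were higher and 0 lower (3 lower at an unadjusted p under 0.05). With DESeq2 3 were higher, with offsets for GC content and length 9 were higher, and with limma on log2 FPKM 1 was higher and 0 lower (5 unadjusted). Over all genes tested, 2201 were higher as reported, 1812 with DESeq2, 2608 with the offsets and 224 with limma (pseudocount of 1). With limma 237 were lower over all genes, against 1956 as reported. Both TAP1 and IFIT3 changed by more than 2-fold, and the other 7 called members by less. These RNA values come from bulk cells, in which fewer expressing cells and less RNA per cell cannot be told apart.

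**Figure D3:**
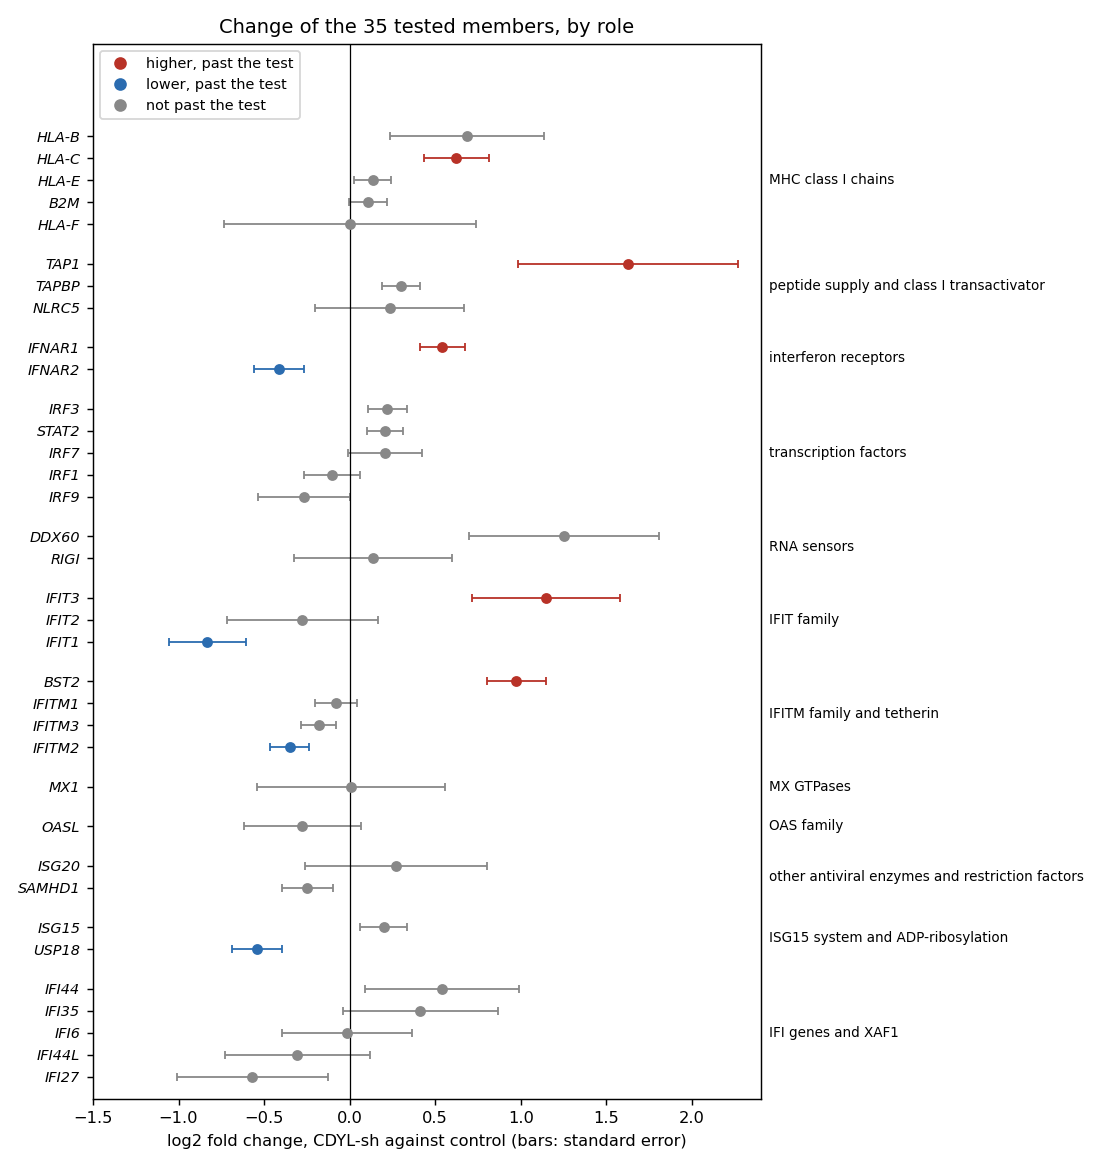
Log2 fold change, CDYL-sh against control (x axis), of the 35 members tested, with bars of 1 standard error and colour for the call. The values run from -0.83 (IFIT1) to 1.63 (TAP1), and the bars are widest for the members with few counts.

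**Figure D4:**
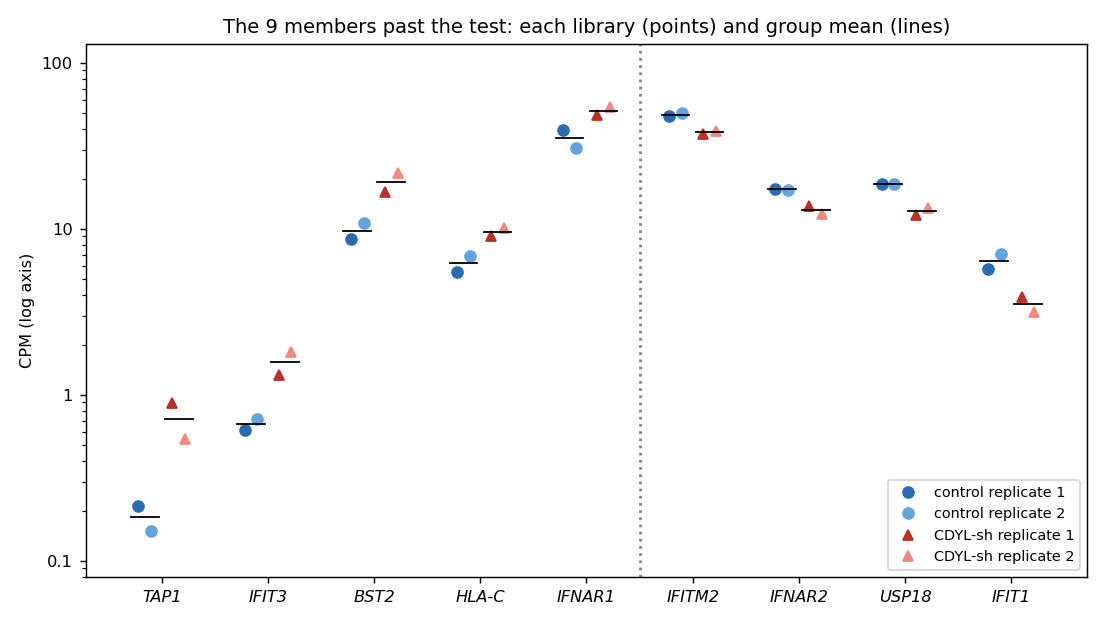
CPM in each library (points, log axis) and group mean (lines) for the 9 members past the test, the 5 that rose left of the dotted line and the 4 that fell right of it. The CDYL-sh libraries lie on the same side of both control libraries for each of the 9 genes. The genes were chosen by a test on these libraries, so this separation adds no support. Over all genes tested, the groups did not overlap for 64.3%.

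Among the MHC class I chains, HLA-C was the only member that rose, and no chain fell. HLA-C (ENSG00000204525, chr6:31268749-31272130, minus strand), a classical heavy chain that presents peptides to T cells and is read by natural killer cell receptors, was measured at 5.53 and 6.86 CPM in control and at 9.10 and 10.1 CPM in CDYL-sh libraries. Both CDYL-sh libraries were above both controls. The means were 6.19 ± 0.940 and 9.58 ± 0.675 CPM (SD, n = 2 per group), a log2 fold change of 0.62 (SE 0.19, edgeR quasi-likelihood adjusted p = 0.0208). This call was lost without control replicate 1 (0.47), CDYL-sh replicate 1 (0.68) or CDYL-sh replicate 2 (0.55), and over all 17 alternatives the log2 fold change of HLA-C ran from 0.47 to 0.78 with adjusted p from 0.00114 to 0.207.

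HLA-E, which presents leader peptides of other class I chains to natural killer cells, made up 83.5% of the summed FPKM of HLA-B, HLA-C, HLA-E and HLA-F. It was at 97.9 and 101 CPM in control and at 99.9 and 119 CPM in CDYL-sh, so the groups overlapped (log2 fold change 0.13, 95% interval -0.10 to 0.36, adjusted p = 0.399). HLA-E passed in 1 of 17 alternatives, the offsets for GC content and length (0.24), with adjusted p from 0.0458 to 0.982 over all 17. The light chain B2M was at 263, 316, 304 and 320 CPM, in the order control 1, control 2, CDYL-sh 1 and CDYL-sh 2, which is kept below. Its log2 fold change was 0.11 (95% interval -0.13 to 0.34), and the sign turned to -0.11 with offsets for GC content and length. HLA-B and HLA-F were low, at 0.539 to 1.57 CPM and 0.144 to 0.641 CPM, and neither passed. Heavy chain genes are alike in sequence, so an estimated count can divide reads between copies. Counts of HLA-C were not whole and those of HLA-E were whole, and whether likeness was the cause was not tested. The sum of HLA-B and HLA-C was 6.07, 7.99, 10.7 and 11.2 CPM, again higher in both CDYL-sh libraries.

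In the peptide supply group, TAP1 rose and no member fell, on few reads. TAP1 (ENSG00000168394, chr6:32845209-32853816, minus strand), a subunit of the peptide transporter, had 6 and 4 counts in control and 25 and 12 counts in CDYL-sh. The group means were 0.183 ± 0.0457 and 0.718 ± 0.247 CPM (SD, n = 2 per group), a log2 fold change of 1.63 with an SE of 0.64 (adjusted p = 0.0299). Because TAP1 was above the filter's minimum of 0.367 CPM in no control library and in 2 CDYL-sh libraries, only a higher level in CDYL-sh could bring it into the test. Leaving out control replicate 1 (1.81), control replicate 2 (1.46), CDYL-sh replicate 1 (1.24) or CDYL-sh replicate 2 (1.92) ended the call, and over the 13 alternatives that gave a value the adjusted p ran from 0.00701 to 0.329.

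The partner transporter subunit TAP2 had 1, 0, 3 and 2 counts and was not tested. PSMB8, an immunoproteasome subunit, had 1, 1, 1 and 2 counts, and PSMB9, whose RefSeq start lies 488 bp from that of TAP1 on the other strand, had none. The genomic spans of TAP1 and PSMB9 overlap on opposite strands in the later annotation used here. The methods name an orientation mode for the alignment, but the sources do not state whether reads were counted by strand. Tapasin (TAPBP) had the highest mean FPKM of this group (19.5) and was at 54.4, 60.1, 69.3 and 71.6 CPM, with both CDYL-sh libraries above both controls. Its log2 fold change was 0.30 (SE 0.11, adjusted p = 0.0513), just outside the threshold, and 8 of the 17 alternatives put it past the threshold, with adjusted p from 0.00135 to 0.281 over all 17. NLRC5, the transactivator of class I genes, was at 0.754, 1.13, 1.11 and 1.13 CPM (log2 fold change 0.23, SE 0.44), and its sign turned in the FPKM values.

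The subunits of the type I interferon receptor moved in opposite directions. IFNAR1 (ENSG00000142166, chr21:33324387-33359864, plus strand) was at 39.6 and 30.5 CPM in control and at 48.3 and 53.9 CPM in CDYL-sh, so both CDYL-sh libraries were higher. Its means were 35.04 ± 6.39 and 51.1 ± 3.96 CPM (SD, n = 2 per group), a 1.46-fold rise (log2 fold change 0.54, SE 0.13, adjusted p = 0.00558), and the call held without any one library. It was lost in 3 of the 17 alternatives, those on log2 FPKM (0.68, 0.72 and 0.68), with adjusted p from 0.000495 to 0.248 over all 17. IFNAR2 (ENSG00000159110, chr21:33205282-33265675, plus strand), the subunit with the higher affinity for interferon, was at 17.5 and 17.2 CPM in control and at 13.6 and 12.3 CPM in CDYL-sh. It fell 1.33-fold (log2 fold change -0.41, SE 0.15, adjusted p = 0.0450), close to the threshold. The call of IFNAR2 was lost without control replicate 1 (-0.41), CDYL-sh replicate 1 (-0.51) or CDYL-sh replicate 2 (-0.34), and with upper quartile scaling, library size scaling, DESeq2 and limma-voom, with adjusted p from 0.00525 to 0.363 over the 17 alternatives. A readthrough gene that joins IFNAR2 to IL10RB is annotated on the same strand, and the counts of IFNAR2 were not whole.

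None of the 5 transcription factors passed edgeR's test, at an adjusted or an unadjusted p under 0.05. IRF3, which is activated by sensors and switches on interferon genes, was the most abundant by mean FPKM (98.8), and was read at 61.6, 70.1, 71.2 and 82.2 CPM (log2 fold change 0.22, SE 0.11, adjusted p = 0.172). STAT2, a subunit of the complex that binds the ISRE, was at 59.95, 58.9, 69.1 and 68.3 CPM (log2 fold change 0.21, 95% interval -0.02 to 0.43, adjusted p = 0.160). For both genes the CDYL-sh libraries were above the controls. They passed with offsets for GC content and length, at 0.31 for IRF3 and 0.33 for STAT2, and IRF3 also with a replicate block (0.22), with adjusted p over the alternatives of 0.0137 to 0.703 for IRF3 and 0.00812 to 0.446 for STAT2. By mean FPKM, IRF9, the DNA-binding partner of STAT2, stood at 2.33 against 26.9 for STAT2. Across the libraries IRF9 was at 2.43 to 3.55 CPM, IRF7 at 4.22 to 5.35 CPM and IRF1 at 10.4 to 11.7 CPM. The log2 fold change of IRF7 was 0.21 from counts and turned to -0.22 in log2 FPKM with a pseudocount of 1, and that of IRF1 turned from -0.10 to 0.05 with the GC and length offsets.

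The RNA sensors were expressed at a low level in every library. RIGI, which binds viral RNA ends, had 24, 25, 21 and 28 counts with no separation of the groups (log2 fold change 0.14, SE 0.46). DDX60, a helicase linked to RIGI signalling, had 9 and 8 counts in control and 20 and 22 counts in CDYL-sh. Its log2 fold change of 1.25 (SE 0.56, adjusted p = 0.0648) was outside the threshold, and DDX60 too entered the test only through the CDYL-sh libraries. It passed in 1 of 13 alternatives, the likelihood ratio test of edgeR (1.25), with adjusted p from 0.0296 to 0.432. IFIH1, the sensor of long viral RNA, had 6, 2, 2 and 13 counts and was not tested.

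Within the IFIT family, whose proteins bind foreign RNA and block its translation, IFIT1 fell and IFIT3 rose. IFIT1 (ENSG00000185745, chr10:89392546-89406487, plus strand) was at 5.71 and 7.05 CPM in control and at 3.89 and 3.17 CPM in CDYL-sh. Both CDYL-sh libraries were below both controls. The means were 6.38 ± 0.946 and 3.53 ± 0.509 CPM (SD, n = 2 per group), a 1.78-fold fall (log2 fold change -0.83, SE 0.23, adjusted p = 0.0101). Without CDYL-sh replicate 2 the call of IFIT1 was lost (-0.70), and it was also lost with limma on log2 FPKM, with adjusted p from 0.00160 to 0.254 over the 17 alternatives.

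IFIT3 (ENSG00000119917, chr10:89327307-89377473, plus strand), which binds and stabilises IFIT1, had 17 and 19 counts in control and 37 and 40 in CDYL-sh, or 0.610, 0.716, 1.32 and 1.81 CPM. It rose 2.21-fold, a log2 fold change of 1.15 (SE 0.43, adjusted p = 0.0431). That call was lost without control replicate 1 (1.03), control replicate 2 (1.25), CDYL-sh replicate 1 (1.34) or CDYL-sh replicate 2 (0.93), and with DESeq2 (1.23), with adjusted p from 0.00985 to 0.356 over the 17 alternatives. In mean FPKM, IFIT1 stood at 3.11 and IFIT3 at 0.510. IFIT2 had 45, 22, 28 and 22 counts (log2 fold change -0.28, SE 0.44), and IFIT5 was not tested at 9, 9, 9 and 3 counts. The summed level of the 4 IFIT genes was 8.26, 8.93, 6.53 and 6.12 CPM, lower in both CDYL-sh libraries, since IFIT1 held most of the reads. IFIT1, IFIT2 and IFIT3 overlap the annotated span of LIPA on the opposite strand, from which their reads cannot be told apart without strand, and all counts of IFIT1 and IFIT3 were whole.

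BST2, known as tetherin because it holds budding virus particles to the cell surface, showed the smallest adjusted p of the 50 members. BST2 (ENSG00000130303, chr19:17402939-17405630, minus strand) had 241 and 288 counts in control and 470 and 480 counts in CDYL-sh. In CPM this was 8.65 and 10.9 against 16.8 and 21.8, with both CDYL-sh libraries above both controls. It rose 1.96-fold, from 9.75 ± 1.56 to 19.3 ± 3.51 CPM (SD, n = 2 per group), a log2 fold change of 0.97 (SE 0.17, 95% interval 0.61 to 1.33, adjusted p = 0.000471). The call held in 16 of 17 alternatives and without any one library. It was lost only with limma on log2 FPKM of all genes with a value (0.94). At that setting 0 of 25884 genes were called in either direction, so no gene kept a call there. Over the 17 alternatives the adjusted p of BST2 ran from 7.4e-10 to 0.160.

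The IFITM proteins, which hinder fusion of viruses with the membrane, were among the most abundant members, and of the 3 genes IFITM2 fell. IFITM2 (ENSG00000185201, chr11:303655-309397, plus strand) was at 47.6 and 49.8 CPM in control and at 37.5 and 38.8 CPM in CDYL-sh. It fell 1.28-fold (log2 fold change -0.35, SE 0.11, adjusted p = 0.0297). Its call was lost without control replicate 2 (-0.32), CDYL-sh replicate 1 (-0.34) or CDYL-sh replicate 2 (-0.37), with adjusted p from 0.00622 to 0.167 over the 17 alternatives. IFITM3 was at 111, 111, 96.3 and 100 CPM (log2 fold change -0.18, SE 0.10, adjusted p = 0.203), with no overlap of the groups, and IFITM1 was at 39.3, 44.4, 36.9 and 42.5 CPM with overlap (-0.08, SE 0.12). These 3 genes are alike in sequence and the counts of each were not whole, and whether reads were divided between them was not tested. Their sum was 198, 206, 171 and 181 CPM, lower in both CDYL-sh libraries.

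Of the MX and OAS families, which interferon induces, MX1 and OASL were tested and did not pass, and the other 4 genes had at most 5 counts in a library. MX1, a GTPase that traps viral ribonucleoproteins, had 12, 17, 16 and 11 counts (log2 fold change 0.01, SE 0.55), and MX2 had 2, 5, 3 and 1 counts. Of the OAS enzymes, which make oligoadenylates that activate RNase L, OAS1 had no counts, OAS2 had 1 count in 1 library and OAS3 had 2 counts in 1 library. OASL, a relative without that activity, was tested at 47, 57, 40 and 38 counts (log2 fold change -0.28, SE 0.34, adjusted p = 0.577).

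Among the other antiviral enzymes, SAMHD1, which depletes nucleotides needed for reverse transcription, had the highest mean FPKM (6.81). It was at 38.5, 27.3, 29.3 and 26.1 CPM, and control replicate 1 stood above the other 3 libraries. Its log2 fold change was -0.25 (SE 0.15, adjusted p = 0.233). Leaving out control replicate 2 gave -0.47 and put SAMHD1 past the threshold, and leaving out control replicate 1 gave 0.01, with adjusted p from 0.00565 to 0.968 over the alternatives. The exonuclease ISG20 had 13, 18, 25 and 11 counts (log2 fold change 0.27, SE 0.53). RSAD2 (viperin) had 1, 1, 2 and 2 counts and the ubiquitin ligase TRIM22 at most 3.17, so neither was tested.

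In the ISG15 system, the protease USP18 fell and ISG15 did not pass the test. USP18 (ENSG00000184979, chr22:18150118-18177397, plus strand), which removes ISG15 from proteins and also binds IFNAR2 to restrain signalling, was at 18.5 and 18.7 CPM in control libraries. In CDYL-sh libraries it was at 12.2 and 13.4 CPM, below both controls. The means were 18.6 ± 0.117 and 12.8 ± 0.875 CPM (SD, n = 2 per group), a 1.45-fold fall (log2 fold change -0.54, SE 0.15, adjusted p = 0.0108). The call was lost without CDYL-sh replicate 1 (-0.49) or CDYL-sh replicate 2 (-0.61), with adjusted p from 0.00212 to 0.180 over the 17 alternatives, and the counts of USP18 were not whole. ISG15, the ubiquitin-like modifier, was at 19.6, 21.0, 21.2 and 25.5 CPM (log2 fold change 0.20, 95% interval -0.09 to 0.49, adjusted p = 0.305). DTX3L and PARP9, which work as a ligase complex, had at most 1.18 counts in a library, and PARP14 had none.

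None of the 5 tested genes of the IFI group passed edgeR's test, and none had an unadjusted p under 0.05, while the remaining gene, XAF1, had no counts. IFI27 had 31, 32, 22 and 16 counts, lower in both CDYL-sh libraries (log2 fold change -0.57, SE 0.44, adjusted p = 0.331). IFI44 was at 0.790, 0.716, 1.25 and 0.997 CPM, higher in both CDYL-sh libraries (0.54, SE 0.45, adjusted p = 0.365), and IFI44L, its neighbour, had 45, 27, 24 and 28 counts (-0.30, SE 0.42). IFI6, a membrane protein of the endoplasmic reticulum, had 33, 40, 40 and 27 counts (-0.01, SE 0.38). In IFI35, CDYL-sh replicate 2 stood apart at 58 counts against 36, 32 and 23 in the others, and without it the log2 fold change turned from 0.41 to -0.56.

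How precisely a member could be measured followed its level. Of the 16 tested members with a mean under 2 CPM, 2 were called, and their SE of the log2 fold change ran from 0.34 to 0.74. For the 4 members between 2 and 10 CPM the SE was 0.19 to 0.27 and 2 were called. For the 15 members at 10 CPM or above it was 0.10 to 0.17 and 5 were called. The share of all genes called at these levels was not computed, so these counts are not a result about the members.

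**Figure D5:**
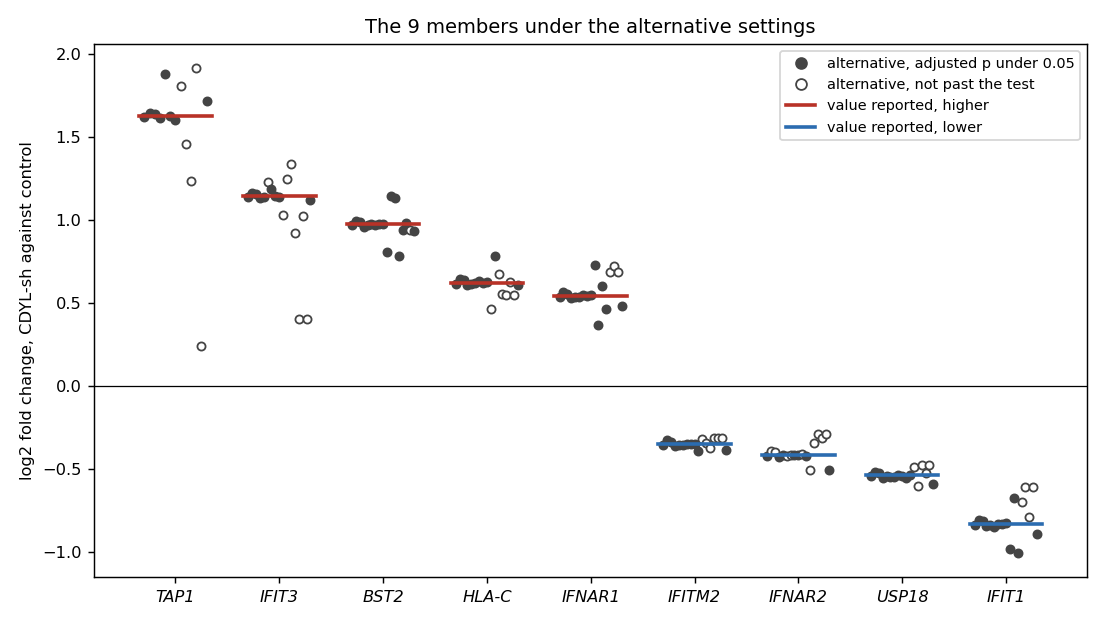
Log2 fold change of the 9 called members (y axis) as reported (lines) and under each alternative setting that gave a value (points, filled where the adjusted p was under 0.05). No value changed sign. Past the threshold were BST2 in 16 of 17 alternatives, IFNAR1 in 14, IFIT1 in 13, USP18 in 12, HLA-C and IFITM2 in 11, IFIT3 in 9 and IFNAR2 in 7. TAP1 was past it in 8 of 13. For USP18, HLA-C, IFITM2, IFIT3, IFNAR2 and TAP1 the text names only some of the lost calls.

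The wider pathway was taken from 102 other genes of interferon signalling and antigen presentation, of which 74 were tested. Of these, 5 rose and 11 fell in CDYL-sh cells and 58 did not pass, so 21.6% were called against 25.7% of all genes tested. The median log2 fold change was 0.01. Of the 9 interferon ligands none was tested, and a single count for IFNE in 1 control library was all that was read. By edgeR's test, 1 of 11 receptors and kinases fell and 0 rose (2 and 0 at an unadjusted p under 0.05). Of the sensing genes and adaptors, 2 of 10 rose and 3 fell. None of 5 tested interferon regulatory factors passed (1 lower and 0 higher unadjusted). In the other antigen presentation genes 3 of 18 fell and 0 rose (3 and 1 unadjusted), and of the other interferon-stimulated genes 3 of 30 rose and 4 fell. The count of 5 that rose became 2 with DESeq2 or without CDYL-sh replicate 1, 1 without CDYL-sh replicate 2 and 9 with GC and length offsets, and the count of 11 that fell became 4 without CDYL-sh replicate 2.

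TBK1, the kinase that activates IRF3, was at 14.9, 11.1, 20.4 and 22.98 CPM and rose (log2 fold change 0.73, SE 0.16, adjusted p = 0.00243). HERC5, the ligase that attaches ISG15, was at 2.76, 3.54, 4.89 and 6.25 CPM and rose by 0.80 (SE 0.24, adjusted p = 0.0181). SP100, a nuclear body protein, rose from 1.40 and 1.21 to 2.93 and 2.58 CPM (1.04, SE 0.32, adjusted p = 0.0193). All 3 genes were higher in both CDYL-sh libraries. LGALS3BP, a secreted glycoprotein, was at 121, 116, 81.6 and 83.1 CPM and fell (-0.53, SE 0.10, adjusted p = 0.00115). TRAF3, an adaptor of the sensing pathway, was at 107, 96.3, 75.8 and 64.8 CPM and fell (-0.53, SE 0.11, adjusted p = 0.00215). RFX5, which binds MHC promoters, was at 71.5, 71.2, 53.0 and 46.3 CPM and fell (-0.52, SE 0.11, adjusted p = 0.00231). These 3 genes were lower in both CDYL-sh libraries. The genes named in this paragraph were chosen by lowest adjusted p, so the separation of their libraries adds no support.

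Markers of other cell types were counted because immune cells express many of the members. Of the 8 leukocyte markers 2 were tested, and CD68 rose, at 7.75, 11.6, 20.6 and 18.1 CPM (log2 fold change 0.998, SE 0.18, adjusted p = 0.000567). Of the 4 endothelial markers 3 were tested and PECAM1 rose (1.65, SE 0.26, adjusted p = 0.000138), on a summed level of 0.660 and 0.830 against 1.87 and 1.75 FPKM. CDH5, of the same list, was at 17 and 23 counts in control and at 7 and 7 in CDYL-sh, below both controls (-1.19, SE 0.59, adjusted p = 0.0897). Of the 7 stromal markers 4 were tested and COL1A1 fell (-0.82, SE 0.17, adjusted p = 0.00206), on a summed level of 6.98 and 6.54 against 4.43 and 4.86 FPKM, with COL3A1 and DCN at 0. Among the epithelial markers 4 of 8 rose (KRT7, KRT19, CLDN3 and CLDN4) and KRT18 fell. The part of these marker changes in the results of the members was not tested.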

How the data were processed

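RNA-seq libraries of Ishikawa cells, 2 control and 2 CDYL-sh, were grouped by their labels. Per the methods and the submitters' processing notes, the authors used TopHat to align paired-end reads to GRCh38.p10, and RSEM and edgeR are also named in the notes. The annotation release is not given in the sources used here. The authors deposited for each gene and library an expected count (an estimated read count, often not whole) and an FPKM, scaled for gene length and depth. From these, expected counts were rounded, filtered with filterByExpr (16158 genes kept), scaled by TMM and tested with edgeR 4.0.16 (quasi-likelihood, CDYL-sh against control, no other term, R 4.3.3), adjusted by Benjamini-Hochberg over all genes tested at 0.05. CPM used TMM library sizes, and the prior count was 2. Levels of different genes were ranked by FPKM, and CPM was used within a gene and for sums of reads. Gene positions are from GENCODE release 44 on GRCh38 and sequences from RefSeq on GRCh38.p14. The 17 alternatives used other scalings, filters, tools (DESeq2 1.42.0, limma 3.58.1), a replicate block, each library left out, log2 FPKM and GC and length offsets. Where a library was left out, the remaining library of its group was taken to vary as the others do. The script was tested on simulated data. All members were accounted for, with values per library for called members and for the main members of each role, and up to 3 genes per direction of the other lists by adjusted p. The members and lists were chosen with earlier results of these data known. The labels do not say whether replicate numbers pair the libraries, and the block is not part of the reported fit.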

Additional observations from a re-analysis of the deposited data

How the results depend on the processing

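Over the 17 alternatives and the 35 members tested, the direction and the side of the threshold held in 485 comparisons, 48 lost a call, 14 gained one and 31 changed sign, none of them in a called member. The reported counts were 5 members higher and 4 lower, and 5 and 11 of the other pathway genes. With DESeq2, 3 members and 2 pathway genes were higher. With offsets for GC content and length, 9 and 9 were higher. With limma on log2 FPKM, a pseudocount of 1 or 0.1 and a mean of at least 0.5, 1 member was higher (3 at an unadjusted p under 0.05) and 0 lower (5 unadjusted), with 0 pathway genes either way (2 higher and 10 lower unadjusted). With every gene above 0, all 4 counts were 0 (8, 6, 3 and 11 unadjusted). At that setting 0 of all 25884 genes were called higher and 0 lower, so these counts are not particular to the lists. Leaving out 1 library gave 2 to 4 members higher and 0 to 4 lower, and 1 to 6 pathway genes higher and 4 to 10 lower. The 0 came without CDYL-sh replicate 2 (edgeR, 3 unadjusted). Calls over all genes shifted with the setting too, and the cause of these shifts was not tested.

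Replicate numbers of the groups match, but the deviations of control 1 and CDYL-sh 1 from their group means did not correlate (r = 0.0300 over genes). With 2 libraries per group this cannot show whether the libraries were prepared in pairs, and the numbers were not used as a pairing. With the replicate block, 7 members were higher and 4 lower, and 7 and 15 pathway genes. Over all genes tested, 2812 were higher and 2581 lower with the block, against 2201 and 1956 as reported.

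Signs turned in these cases: HLA-F with RLE scaling (-0.0047) and no filter (-0.0021), IFI6 with upper quartile (0.0088), library size only (0.0011) and voom (0.00055), MX1 with no filter (-0.0064) and GC offsets (-0.090), B2M (-0.11) and IRF1 (0.047) with GC offsets, and, on log2 FPKM, NLRC5 (-0.22, -0.42 and -0.22) and IRF7 (-0.22, -0.27 and -0.22). With 1 library left out, the log2 fold change ran from -0.031 to 0.24 for B2M, -0.69 to 1.09 for HLA-F, -0.022 to 0.53 for NLRC5, -0.65 to 0.24 for IFIT2, -0.23 to 0.27 for MX1, -0.47 to 0.012 for SAMHD1, -0.58 to 0.036 for IFI44L, -0.18 to 0.013 for IFITM1, -0.18 to 0.16 for IFI6, -0.19 to 0.59 for ISG20, -0.24 to 0.44 for RIGI and -0.56 to 1.01 for IFI35.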
